A study of Mus musculus and Rattus norvegicus with 32 samples.

Results

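The proteasome is the protease that removes proteins marked with ubiquitin. Its 20S core is a barrel in which outer rings of alpha subunits (Psma genes) gate the entry and inner rings of beta subunits (Psmb genes) carry the catalytic sites. A 19S cap on the core holds a ring of ATPases (Psmc genes) that unfold substrates and non-ATPase subunits (Psmd genes) that bind ubiquitin chains or cut them off. Further genes encode activators that can sit on the core in place of the cap (Psme genes), chaperones that assist assembly (Psmg genes and Psmd5, Psmd9 and Psmd10), and Psmb8, Psmb9 and Psmb10, catalytic subunits that are induced by interferon and replace constitutive beta subunits in the immunoproteasome. In liver, proteasome genes are known to be raised together by stress-responsive transcription factors of the NRF family.

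Transcripts of these genes were followed in livers of mice and rats given trichloroethylene (TCE, a chlorinated solvent that liver enzymes convert to reactive and peroxisome-proliferating metabolites). Members were all probe sets whose annotation held exactly 1 symbol made of Psma, Psmb, Psmc, Psmd, Psme, Psmf or Psmg and a digit. This took 107 of 21162 probe sets. They were 58 of 12422 in mouse, for 46 of 8251 genes, and 49 of 8740 in rat, for 27 of 4736 genes, with 26 genes on both array types. The name rule also took Psmc3ip, a meiotic recombination factor, and Psme3ip1, a partner protein of the activator Psme3, in mouse; both were counted but kept apart from the subunits. Probe sets with several symbols were left out, which removed mouse Psme2 and rat Psma3, Psmb6 and Psme3.

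The study held 32 arrays in 8 groups of 4. Male B6C3F1 mice and male SD rats received either TCE at 1500 mg/kg in corn oil, or the oil alone, by gavage. Animals dosed once were 8 weeks old, and animals dosed daily over 14 days were 10 weeks old. Liver was collected 18 h after the only or final dose. Each group is therefore 1 species, 1 schedule and 1 agent, and schedule and age differ together. The labels number the arrays of a group 1 to 4 and do not say whether each is a separate animal. The p-values therefore reflect variation among arrays, which may be partly technical.

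The deposited value of a probe set is its signal divided by the median signal of the matching oil group (4 arrays), so an oil group centres on 1 and no signal level remains. For that reason the labelled tissue could not be set against the levels of liver markers, and genes cannot be ranked by abundance. Changes below are differences of group means of log2 ratios, TCE minus oil, ± the standard error of the fit, with n = 4 and 4 unless stated otherwise. A gene was called higher or lower when limma's p-value, adjusted by Benjamini-Hochberg over all probe sets of the species, was under 0.05. A gene with several probe sets is represented by the one with the smallest spread within groups. Some genes called against oil rest on probe sets with a suffix in their name. In mouse it is f for Psmb4, Psmc3 and Psmd12, and r for Psmd9 and Psmg3. In rat it is s for Psma1, Psma4 and Psmd1. Such probe sets may be less specific to their gene.

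Loss of the 5' ends of transcripts, read from the Gapdh control probes as the 3' minus 5' log2 value, moved with TCE in part of the study. In mouse after 1 dose it was 1.51 ± 0.95 (SD, n = 4) on TCE arrays against -0.03 ± 0.17 on oil arrays (exact permutation test, two-sided, p = 0.0571; the smallest p possible was 0.0286), and 3 of the 4 TCE arrays exceeded 1. The corresponding differences were 0.78 in mouse after repeated doses (exact p = 0.371), 0.30 in rat after 1 dose (exact p = 0.886) and 1.08 in rat after repeated doses (exact p = 0.0571). Arrays above 1 were TCE 2, 3 and 4 and oil 1 in mouse after repeated doses, TCE 4 in rat after 1 dose, and TCE 3 and 4 in rat after repeated doses. In mouse after 1 dose the array below 1 was TCE 2, at 0.09. The same value from the beta-actin control probes differed between TCE and oil by 0.76 in mouse after 1 dose (exact permutation test, two-sided, p = 0.0286, the smallest possible) and by 0.72 after repeated doses (exact p = 0.0571). In rat it differed by 0.06 after 1 dose (exact p = 0.857) and by 0.70 after repeated doses (exact p = 0.229).

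In mouse liver, 1 dose of TCE was accompanied by higher proteasome transcripts. Of 46 genes 12 were higher and 1 was lower, where 4.74% of all 8251 genes were higher and 4.57% lower. The members' median change was 0.29, against -0.08 over all genes, and 34 of the 46 lay above 0. On single arrays the median over the members ran from 0.17 to 0.41 on TCE arrays and from -0.09 to 0.08 on oil arrays. On TCE 2, whose Gapdh value lay within the range of the oil arrays and whose beta-actin value of 0.12 was just above their highest, 0.06, it was 0.41, the highest of the 4. The classes differed on that array. Its median over the non-ATPase subunits, 0.90, was the highest of the 4 TCE arrays, and that over the alpha subunits, 0.56, was the lowest. All TCE values lay above all oil values for 17 members, which 9.08% of all genes also showed, and below them for 3 members, against 10.4% of all genes. With the Gapdh value as a covariate 8 members were higher and 0 lower. These 8 include genes not called without the covariate. The calls of Psma1, Psma7, Psmb4, Psmd8, Psmd12, Psmd14, Psme4 and Psme3ip1 were lost once the fit held the Gapdh value. Without the arrays above 1 in that value, which left 1 TCE array in this group (taken to have the spread of the remaining groups), 0 of 46 were called, and 1 (Psmd5) was called after quantile normalization. Leaving out oil 3 or TCE 1 gave 8 calls in place of 13.

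Most calls within the core were alpha subunits. Of 7 genes 5 were higher and 0 lower, with a median change of 0.64, and the class median per array was 0.80, 0.56, 0.81 and 0.61 on TCE arrays 1 to 4 against 0.19, -0.01, -0.20 and 0.06 on oil arrays 1 to 4. Psma5 had ratios of 2.06, 2.51, 1.91 and 1.87 on the TCE arrays and 1.22, 0.92, 0.96 and 1.04 on the oil arrays. The lowest TCE value of Psma5 was thus well above its highest oil value, and the change of 1.01 ± 0.15 had a limma adjusted p of 0.00211. Psma7 stood at 2.206, 1.996, 2.353 and 1.982 after TCE and at 1.14, 0.92, 0.84 and 1.08 after oil, a change of 1.11 ± 0.19 (adjusted p = 0.00472; 0.0707 with the Gapdh covariate). Psma6, whose TCE ratios were 1.96, 1.90, 1.92 and 1.56 against oil ratios of 1.29, 1.13, 0.87 and 0.80, changed by 0.87 ± 0.16 (adjusted p = 0.00612). The 4 TCE arrays were above all 4 oil arrays for each of these 3 genes.

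Psma1 was higher by a smaller step. Its ratios were 1.74, 1.35, 1.76 and 1.53 after TCE and 0.98, 1.02, 0.88 and 1.21 after oil (0.64 ± 0.14, limma adjusted p = 0.0149). That call was lost without oil 3 or TCE 1, with an adjusted p of up to 0.0513, and with the Gapdh covariate (adjusted p = 0.112). The fifth alpha gene past the threshold was Psma2 at 0.58 ± 0.14 (adjusted p = 0.0188), named here after its values were seen. Psma3 had a change of 0.60 that missed the threshold (adjusted p = 0.0739) although its groups did not overlap. Psma4 stayed near the oil level: its TCE ratios were 1.048, 0.933, 0.999 and 1.046, its oil ratios 1.13, 0.99, 0.93 and 1.01, and its change was -0.01 ± 0.14.

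**Figure D1:**
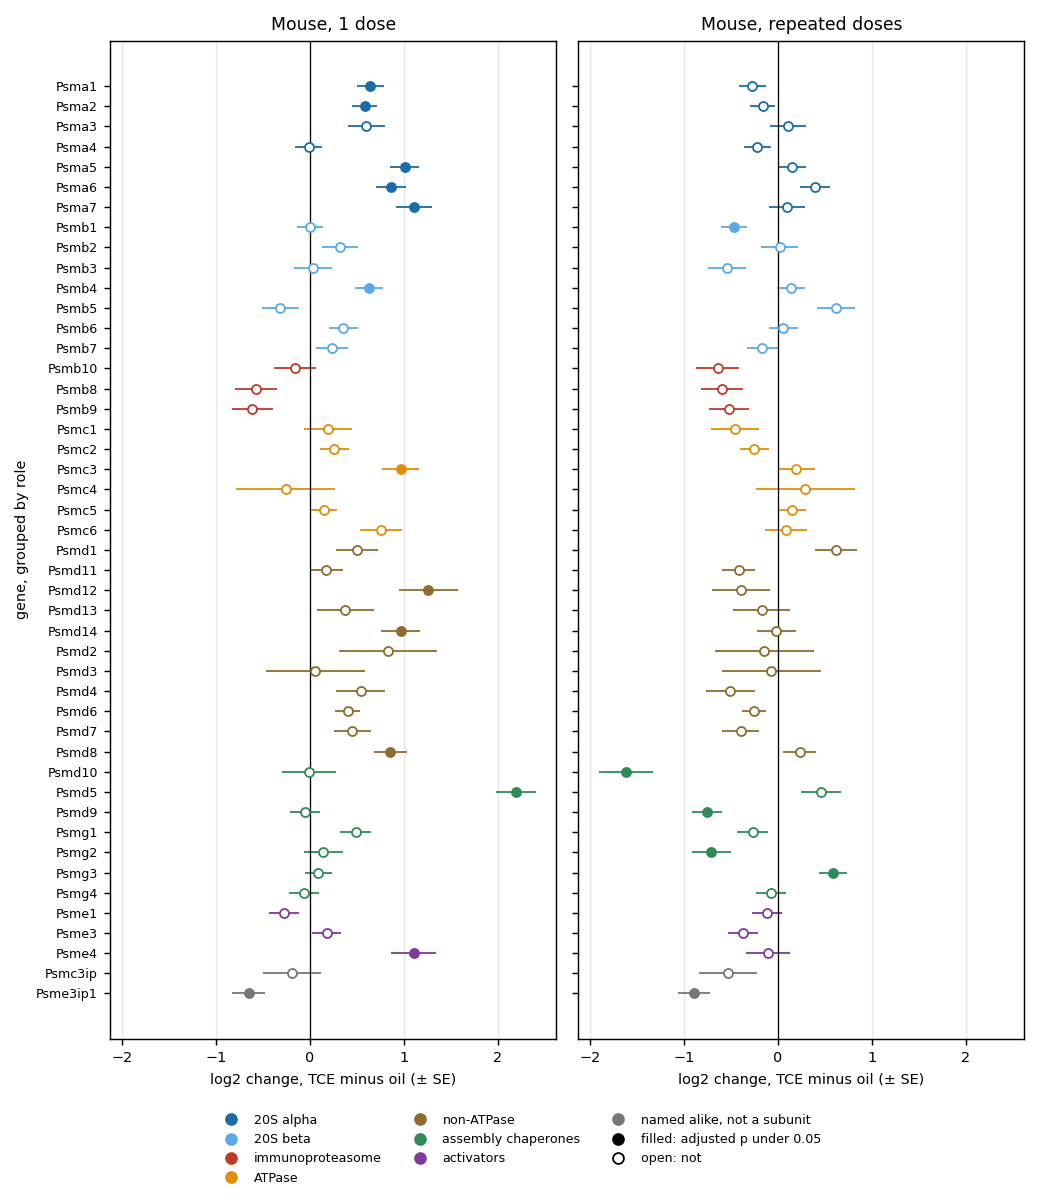
Log2 change (TCE minus oil, ± SE of the fit, n = 4 and 4) of the 46 mouse genes, after 1 dose on the left and after repeated doses on the right; rows are genes grouped and coloured by role, and filled points passed adjusted p under 0.05. After 1 dose most points lie right of 0, with Psmd5 farthest at 2.20, whereas after repeated doses the points straddle 0 and Psmd10 lies farthest left at -1.62.

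Beta subunits, which include the catalytic ones, had 1 of 7 genes higher and a median of 0.24. Psmb4, a non-catalytic beta subunit, had TCE ratios of 1.58, 1.63, 1.64 and 1.42 against oil ratios of 1.06, 0.94, 0.92 and 1.17 (0.62 ± 0.15, limma adjusted p = 0.021). Its call was lost without oil 2, oil 3, TCE 1 or TCE 3, with an adjusted p of up to 0.0664, and with the Gapdh covariate (0.0796). The catalytic subunits were not called: Psmb5, which carries the chymotrypsin-like site, had a change of -0.32 (adjusted p = 0.368), and the 7 genes ranged from that value to 0.62. For Psmb1 the 3 probe sets disagreed. The one of smallest spread gave 0.0003, another gave 0.95 (adjusted p = 0.0212), and the remaining one -0.91 (adjusted p = 0.134).

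Of the 11 non-ATPase subunits of the 19S cap 3 were higher and 0 lower, with a median of 0.50 and a range of 0.06 to 1.26 over the probe sets that represent them. For Psmd11, at 0.17, the 2 other probe sets gave 0.05 and -0.46; the last had all TCE arrays below all oil arrays (limma adjusted p = 0.167). Psmd12, a lid subunit, had TCE ratios of 2.46, 2.21, 2.62 and 1.68 against oil ratios of 0.99, 1.01, 0.47 and 1.54. The groups just fail to touch, because oil 4 is high and TCE 4 low, and the change was 1.26 ± 0.31 (limma adjusted p = 0.0239). This call was lost without oil 3, TCE 1 or TCE 3 (adjusted p of up to 0.07) and with the Gapdh covariate (0.229).

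Psmd14, the deubiquitinase of the lid, was tighter, with ratios of 1.92, 1.79, 1.90 and 2.12 after TCE and 0.999, 1.001, 0.774 and 1.227 after oil. Its change was 0.97 ± 0.21 (limma adjusted p = 0.0125; 0.162 with the Gapdh covariate). Psmd8, a further lid subunit, had TCE ratios of 2.12, 1.89, 2.12 and 1.86 and oil ratios of 1.59, 0.93, 0.99 and 1.01, with oil 1 apart from the other oil arrays. It changed by 0.85 ± 0.18 (adjusted p = 0.00997; 0.117 with the Gapdh covariate). Psmd14 and Psmd8 kept their calls whichever single array was left out.

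Of the 6 ATPases 1 was higher, and the median was 0.22. Psmc3 had ratios of 2.58, 1.93, 1.61 and 1.90 after TCE and 0.90, 1.20, 0.88 and 1.10 after oil, so that TCE 1 was the highest array and all TCE arrays exceeded all oil arrays (0.97 ± 0.20, limma adjusted p = 0.00993). The 2 other Psmc3 probe sets gave 0.66 and -0.06, and the mean over the 3 did not pass (0.52, adjusted p = 0.198).

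The largest change of any member was that of Psmd5, a chaperone that holds ATPases during assembly of the 19S base and is not part of the finished proteasome. Its ratios were 5.03, 5.16, 4.33 and 5.01 on the TCE arrays against 1.11, 1.49, 0.86 and 0.89 on the oil arrays. The 4 TCE arrays lay close together and far above the highest oil array. The change of 2.20 ± 0.21 was 4.59-fold (limma adjusted p = 6.67e-05). It was the only named call of this comparison kept after quantile normalization (adjusted p = 0.00682), and with the Gapdh covariate the adjusted p was 0.0032. The 6 other assembly chaperones measured (Psmd9, Psmd10 and Psmg1 to Psmg4) were not called, and the class median was 0.09.

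Psme4, a large activator that binds the open end of the core, was also higher. Its TCE ratios were 2.13, 1.88, 2.28 and 2.37 and its oil ratios 0.86, 1.30, 0.80 and 1.15. The groups were apart by more than the spread of either, with a change of 1.10 ± 0.24 (limma adjusted p = 0.0124; 0.193 with the Gapdh covariate). Psme3, the nuclear activator, and Psme1, the interferon-inducible one, were not called, at 0.18 and -0.28. Psme3ip1 was lower, with TCE ratios of 0.67, 0.62, 0.60 and 0.71 and oil ratios of 0.94, 1.05, 0.95 and 1.16. Its change was -0.66 ± 0.17 (adjusted p = 0.0326), a call lost whichever of the 8 arrays was left out, with an adjusted p of up to 0.0857.

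Promoters are shown for Psma7, Psmd12, Psme4 and Psmd5, which had the largest rises after 1 dose in their classes, and for Psmd10, which had the largest fall after repeated doses and a change of -0.01 after 1 dose. RefSeq's mouse windows (build GRCm38.p6) held a promoter for 39 of the 46 mouse genes, and windows of 250 bases before and 50 after the start were searched on both strands. Each sequence below covers 250 bases before the start and 10 after it, 5' to 3' on the strand of the gene. Capitals mark matches to TGACNNNGC, the core of the antioxidant response element bound by NFE2L1 and NFE2L2, or to CCAAT, the NF-Y motif, on either strand. Psma7 lies at chr2:180042455-180042714 (minus strand), Psmd12 at chr11:107479278-107479537 (plus strand), Psme4 at chr11:30771525-30771784 (plus strand), Psmd5 at chr2:34870953-34871212 (minus strand) and Psmd10 at chrX:140956702-140956961 (minus strand).
Psma7: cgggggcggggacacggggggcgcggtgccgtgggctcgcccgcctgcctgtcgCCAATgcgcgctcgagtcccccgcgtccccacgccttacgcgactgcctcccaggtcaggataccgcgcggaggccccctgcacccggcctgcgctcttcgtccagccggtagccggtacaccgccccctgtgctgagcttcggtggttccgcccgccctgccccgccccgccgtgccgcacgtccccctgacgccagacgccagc
Psmd12: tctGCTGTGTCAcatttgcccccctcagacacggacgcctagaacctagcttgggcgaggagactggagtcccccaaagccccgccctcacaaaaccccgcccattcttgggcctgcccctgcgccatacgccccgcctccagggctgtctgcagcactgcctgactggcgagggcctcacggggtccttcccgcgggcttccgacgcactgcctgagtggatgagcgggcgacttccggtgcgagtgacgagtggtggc
Psme4: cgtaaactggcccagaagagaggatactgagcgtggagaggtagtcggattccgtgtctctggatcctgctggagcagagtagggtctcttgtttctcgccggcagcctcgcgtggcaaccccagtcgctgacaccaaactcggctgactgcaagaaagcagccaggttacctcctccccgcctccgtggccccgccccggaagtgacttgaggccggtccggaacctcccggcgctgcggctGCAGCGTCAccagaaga
Psmd5: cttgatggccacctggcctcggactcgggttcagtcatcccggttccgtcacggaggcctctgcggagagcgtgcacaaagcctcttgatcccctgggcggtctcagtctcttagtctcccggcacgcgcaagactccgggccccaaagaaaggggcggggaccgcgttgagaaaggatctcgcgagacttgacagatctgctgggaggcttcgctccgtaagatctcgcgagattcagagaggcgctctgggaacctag
Psmd10: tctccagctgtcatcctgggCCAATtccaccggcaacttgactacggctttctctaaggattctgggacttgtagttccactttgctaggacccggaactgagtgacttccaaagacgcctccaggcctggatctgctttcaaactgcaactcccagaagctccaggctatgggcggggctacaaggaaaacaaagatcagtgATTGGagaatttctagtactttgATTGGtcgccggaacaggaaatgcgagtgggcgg

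Psmd12 and Psme4 each held 1 match to TGACNNNGC in the printed stretch, Psma7 held 1 to CCAAT and Psmd10 held 3, while Psmd5, the gene with the largest rise, held neither. Over the full windows TGACNNNGC was found in 6 of 39 members (15.4%) and in 14.0% of all 27025 genes, and in 0 of 7 alpha genes. CCAAT was found in 15 of 39 members (38.5%) against 41.1% of all genes, and in 5 of 7 alpha genes. The other motifs searched were GAANNTTC, a pair of heat shock element units, in 5.13% of members and 9.04% of all genes; TTCNNNGAA, a STAT motif, in 7.69% and 9.55%; and the core of the interferon-stimulated response element in 5 members (12.8%) and 3.99%. The last was in 0 of the 3 immunoproteasome promoters. Matches to different motifs were counted separately and may overlap, and a match describes letters, not binding.

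After repeated doses most calls in mouse liver were downward, among the members as among all genes. Of 46 genes 1 was higher (2.17%) and 5 were lower (10.9%). These shares were near those of all genes, 2.39% higher and 9.42% lower. The members' median of -0.16 equalled that of all genes, -0.16. After centring each array on its median the split was 3 higher and 3 lower. All TCE values lay above the oil values for 2 members and below them for 8, against 4.87% and 13.9% of all genes. The alpha class had 0 of 7 genes called and a median of 0.10, the non-ATPase class 0 of 11 and -0.18, and the ATPases 0 of 6 and 0.12. Leaving out oil 2 or TCE 2 gave 3 calls in place of 6, and the fit over the 8 arrays of this comparison alone gave 1.

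The calls after repeated doses were mostly assembly factors, of which 3 of 7 were lower and 1 was higher. Psmd10, also known as gankyrin, a chaperone of the 19S base and a binding partner of cell cycle proteins, had TCE ratios of 0.33, 0.25, 0.58 and 0.20 against oil ratios of 0.74, 1.12, 0.88 and 1.16. All TCE arrays were below all oil arrays, and the change of -1.62 ± 0.29 corresponded to a 3.08-fold lower ratio (limma adjusted p = 0.00551). Psmd9, another chaperone of the base, stood at 0.69, 0.50, 0.53 and 0.55 after TCE and at 1.02, 1.02, 0.98 and 0.78 after oil. It fell by 0.75 ± 0.16 (adjusted p = 0.0117). The calls of Psmd10 and Psmd9 were kept whichever single array was left out.

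Psmg2 and Psmg3 belong to separate chaperone pairs that build the alpha ring, and they went opposite ways. Psmg2 had ratios of 0.54, 0.49, 0.69 and 0.83 after TCE and 1.19, 0.94, 0.91 and 1.06 after oil (-0.71 ± 0.21, limma adjusted p = 0.0447). That call was lost after centring (adjusted p = 0.103) and without any 1 of 7 arrays, the exception being TCE 4, with an adjusted p of up to 0.128. Psmg3 had ratios of 1.58, 1.59, 1.54 and 1.18 after TCE and 1.09, 0.80, 0.91 and 1.13 after oil (0.58 ± 0.15, adjusted p = 0.0246). Its call was lost without oil 2, oil 3, TCE 2 or TCE 3 (up to 0.0748) and as the mean of its probe sets (0.156).

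Psmb1, a non-catalytic beta subunit, had TCE ratios of 0.82, 0.65, 0.82 and 0.63 and oil ratios of 1.035, 0.997, 1.003 and 0.96 after repeated doses. Its change was -0.47 ± 0.14 (limma adjusted p = 0.0455), and its 2 other probe sets gave -0.36 and -1.34, the same direction. The call was lost without any of the oil arrays, TCE 2 or TCE 4 (up to 0.121), after centring (0.169) and with the Gapdh covariate (0.0723). Psme3ip1 was again lower, at 0.59, 0.40, 0.67 and 0.63 after TCE against 1.04, 0.93, 1.28 and 0.96 after oil. It changed by -0.90 ± 0.17 (adjusted p = 0.00734), which no single array ended.

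**Figure D2:**
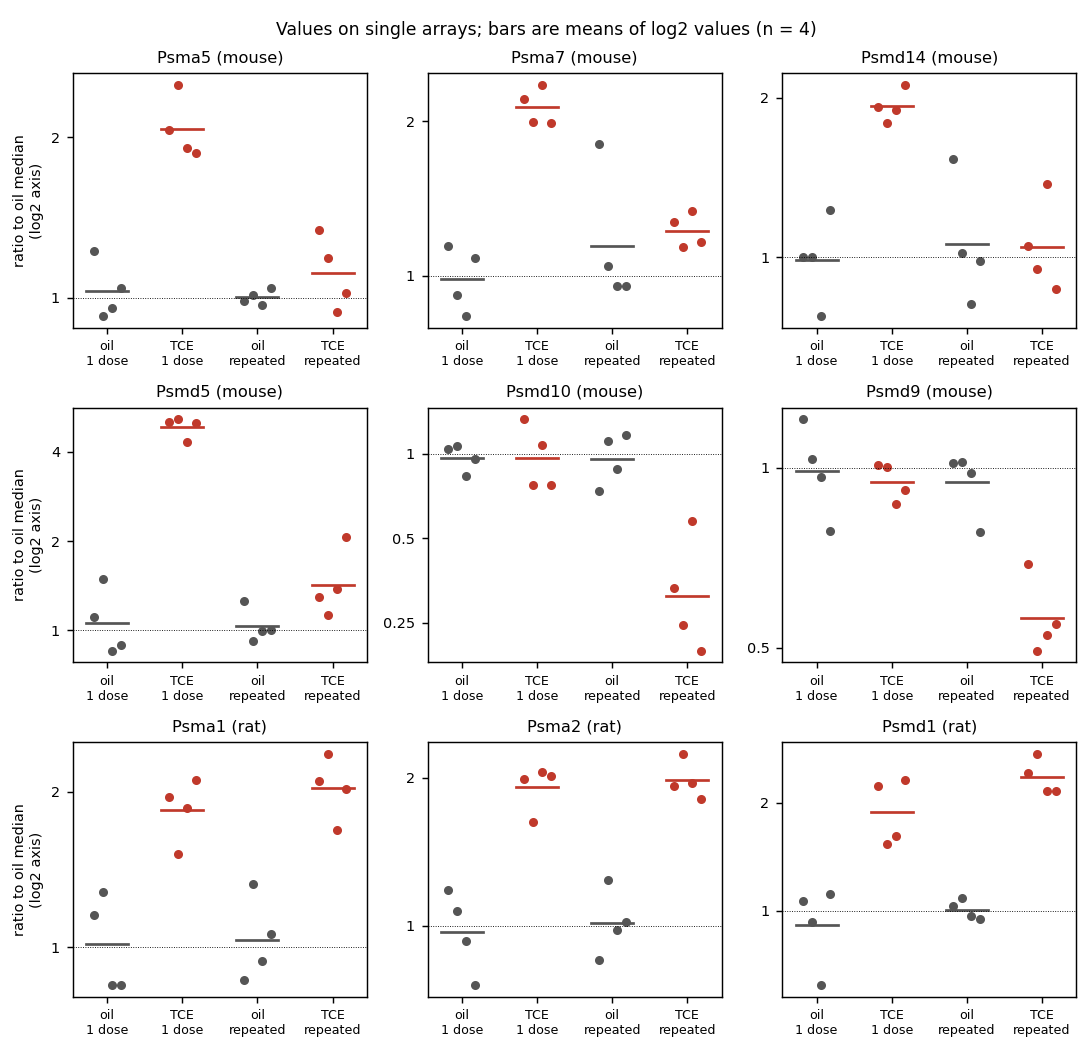
Ratio to the oil median on every array (log2 axis, 1 marked by a dotted line) for 6 mouse and 3 rat genes, oil in grey and TCE in red, with bars at the mean of the log2 values of 4 arrays. In mouse Psmd5 stands at 4.33 to 5.16 after 1 dose of TCE, and Psmd10 stands at 0.20 to 0.58 after repeated doses, whereas rat Psma1, Psma2 and Psmd1 are raised after both schedules.

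Whether the effect of TCE in mouse changed with the schedule was tested directly as the difference of the 2 effects. The members' median difference, repeated minus single, was -0.55 against -0.10 over all genes, and 39 of 46 members were below 0. At the threshold 0 members were higher and 1 was lower, where 0.218% and 0.8% of all genes passed. The call was Psmd5, and Psmd10, with changes of -0.01 and -1.62, did not pass (difference of -1.61, limma adjusted p = 0.0657). After repeated doses the change of Psmd5 was 0.46 (limma adjusted p = 0.18), and the difference was -1.74 (adjusted p = 0.0206; 0.0562 without TCE 1 of the single-dose group). At an unadjusted p under 0.05 there were 24 of 46 members against 20.7% of all genes. All 7 alpha genes had a negative difference, with a median of -0.74, and none passed; Psma1 was nearest, at an adjusted p of 0.05 that did not fall under the threshold.

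In rat liver all member calls were upward, and alpha subunits made up most of them. After 1 dose 5 of 27 members were higher and 0 lower, where 1.16% of all 4736 genes were higher and 0.528% lower. The members' median change was 0.21, against 0.12 over all genes. All TCE values exceeded all oil values for 6 members, against 8.8% of all genes, and lay below them for 0 members, against 4.12%. After repeated doses 4 of 27 were higher and 0 lower, against 2.32% and 0.633% of all genes, with a median of 0.30 against 0.04. Groups did not overlap for 7 members in the upward and 4 in the downward direction, against 8.55% and 4.58% of all genes. The single-dose count was 1 without TCE 1 or TCE 4 and between 1 and 4 for any array left out. It was 0 in the fit on the 8 arrays of the comparison alone, where the spread rests on fewer arrays. The repeated-dose count was 2 without oil 1 or TCE 2, and 1 on the 8 arrays alone, with the Gapdh covariate, or without the arrays above 1 in the Gapdh value.

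**Figure D3:**
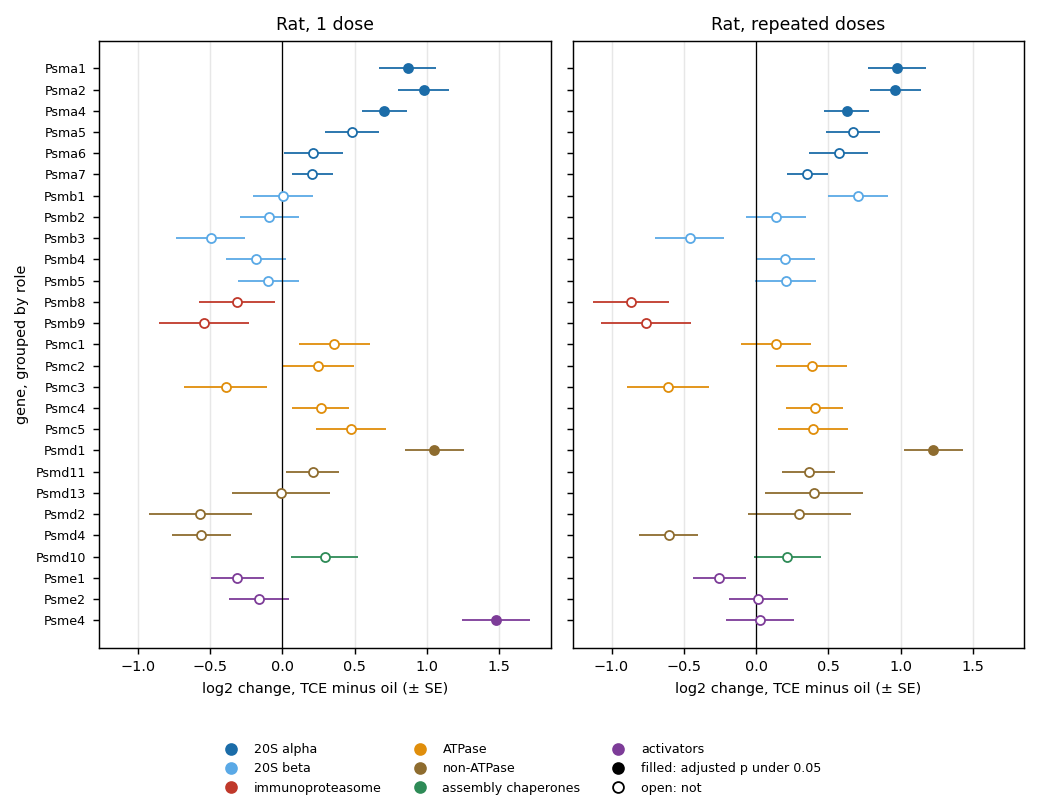
Log2 change (TCE minus oil, ± SE of the fit, n = 4 and 4) of the 27 rat genes after 1 dose on the left and repeated doses on the right; rows are genes grouped and coloured by role, and filled points passed adjusted p under 0.05. Psma1, Psma2, Psma4 and Psmd1 are filled in both panels, while Psme4 is at 1.48 on the left and 0.03 on the right.

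Alpha subunits had 3 of 6 rat genes higher in each schedule, with medians of 0.59 after 1 dose and 0.65 after repeated doses, and all 6 were above 0 in both. Psma2 had ratios of 1.99, 1.63, 2.05 and 2.02 after 1 dose of TCE and 1.19, 1.07, 0.93 and 0.76 after oil (0.98 ± 0.18, limma adjusted p = 0.0181). The call was lost without oil 4, TCE 1 or TCE 4, with an adjusted p of up to 0.0584. After repeated doses Psma2 stood at 1.93, 2.24, 1.95 and 1.82 against 0.85, 1.24, 0.98 and 1.02 (0.96 ± 0.18, adjusted p = 0.00991; 0.0576 with the Gapdh covariate and 0.119 as the mean of its 3 probe sets). In both schedules every TCE array was above every oil array.

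Rat Psma1 had ratios of 1.96, 1.52, 1.86 and 2.11 after 1 dose of TCE against 1.16, 1.28, 0.84 and 0.85 after oil (0.87 ± 0.20, limma adjusted p = 0.0468). The call depended on all 8 arrays, since leaving out any one of them ended it (adjusted p of up to 0.135). It was also lost after centring (0.0664) and as the mean of its probe sets (0.0869). After repeated doses the ratios were 2.10, 2.37, 1.69 and 2.03 against 0.86, 1.33, 0.94 and 1.06 (0.98 ± 0.20, adjusted p = 0.0184). This was lost without oil 1 or TCE 2 (up to 0.0625), with the Gapdh covariate (0.083) and as the mean of its probe sets (0.605), because a second probe set gave -0.33.

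Rat Psma4 was higher by 0.70 ± 0.15 after 1 dose (ratios of 1.72, 1.363, 1.504 and 1.821 against 1.11, 1.05, 0.82 and 0.95; limma adjusted p = 0.0409). Its change after repeated doses was 0.63 ± 0.15 (1.60, 1.42, 1.61 and 1.42 against 0.98, 1.04, 1.02 and 0.87; adjusted p = 0.0442). The single-dose call was lost without any 1 of 7 arrays, the exception being oil 1 (up to 0.105), and the repeated-dose call without any 1 of the 8 (up to 0.106). Both were lost after centring (0.0712 and 0.0636), although the groups did not overlap in either schedule. With the Gapdh covariate the repeated-dose call was lost as well (0.178).

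Among rat 19S subunits 1 of 5 non-ATPase genes was higher in each schedule, and 0 of 5 ATPases. Psmd1, a large scaffold subunit of the base, had ratios of 2.22, 1.53, 1.62 and 2.32 after 1 dose of TCE and 1.07, 0.93, 0.62 and 1.12 after oil (1.05 ± 0.21, limma adjusted p = 0.024). Its 3 other probe sets gave 0.57, 0.20 and -0.67, and the call was lost without oil 2, TCE 1 or TCE 4 (up to 0.0759). After repeated doses the ratios were 2.41, 2.74, 2.16 and 2.16 against 1.03, 1.08, 0.97 and 0.95, a tight separation (1.23 ± 0.21, adjusted p = 0.00744). There the other probe sets gave 1.43, 1.81 and 0.63, all in the same direction. It was the one rat call left without the arrays above 1 in the Gapdh value (adjusted p = 0.0326). The rat beta subunits had 0 of 5 called, with medians of -0.10 and 0.20.

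Psme4 was the largest rat change after 1 dose. Its ratios were 2.21, 4.07, 2.05 and 3.16 on the TCE arrays against 1.21, 0.90, 1.10 and 0.81 on the oil arrays, spread widely within TCE but above every oil array (1.48 ± 0.24, limma adjusted p = 0.0129). The call was kept whichever single array was left out, with an adjusted p of up to 0.045. After repeated doses its change was 0.03. The difference between schedules was not called for any rat member: 0 of 27 passed, as did 0% of all 4736 genes, and at an unadjusted p under 0.05 there were 2 members, against 9.61% of all genes. The difference for Psme4 was -1.45.

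For the 26 genes on both array types the effects in mouse and rat were compared in 1 fit over the 32 arrays, adjusted over 3056 shared genes. After 1 dose 2 were higher and 1 was lower in mouse than in rat, where 1.51% and 2.72% of the shared genes were; centring the arrays gave 4 and 0. Psma7 had the larger change in mouse, by 0.90 (1.11 in mouse and 0.21 in rat; limma adjusted p = 0.0205), as did Psmc3, by 1.36 (0.97 and -0.39; 0.0224). Psma4 was the reverse, by -0.72 (-0.01 and 0.70; 0.0339). These calls were lost without mouse oil 3 for Psma7 (0.0529), without any 1 of 4 arrays for Psmc3 (mouse TCE 1, rat oil 2, rat oil 4 or rat TCE 4; up to 0.0578) and without any 1 of 10 for Psma4 (up to 0.0643). As the mean over probe sets Psmc3 did not pass (0.173), and after centring Psma4 did not (0.149). Psme4 rose in both species after 1 dose and the test of the difference did not call it, at -0.37.

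After repeated doses 6 of 26 members were lower in mouse than in rat and 0 higher, against 8.51% and 2.0% of the shared genes. They were 3 of the 6 alpha genes, Psma1 by -1.25 (-0.28 in mouse and 0.98 in rat; limma adjusted p = 0.000984), Psma2 by -1.13 (-0.16 and 0.96; 0.000884) and Psma4 by -0.85 (-0.22 and 0.63; 0.00565). The others were Psmb1 by -1.17 (-0.47 and 0.71; 0.00218), Psmd10 by -1.84 (-1.62 and 0.22; 0.00212) and the lid subunit Psmd11 by -0.78 (-0.42 and 0.36; 0.0354). Calls other than that of Psmd11 were kept whichever of the 16 arrays of that schedule was left out; Psmd11 was lost without any 1 of 8 (mouse oil 1, oil 2, TCE 2 or TCE 4, or rat oil 1, oil 3, oil 4 or TCE 1), with an adjusted p of up to 0.0796. The Psmd11 call was also lost after centring (0.13) and as the mean of its probe sets (0.146), and its 3 mouse probe sets disagreed: besides the -0.42 used, one was called lower (-0.71, 0.0417) and one higher (0.71, 0.0331) after repeated doses. As the mean of its probe sets Psma1 differed by -0.60 and did not pass (0.288), since the second rat probe set gave -0.33. After quantile normalization 0 of the 6 were called (limma adjusted p of 0.136 for Psmd10 to 0.768 for Psmd11). Without the arrays above 1 in the Gapdh value Psma1 (0.043) and Psmd10 (0.0217) were called and the other 4 were not (0.125 to 0.349). All 6 shared alpha genes had the lower change in mouse, with a median difference of -0.68 against -0.23 over the shared genes.

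**Figure D4:**
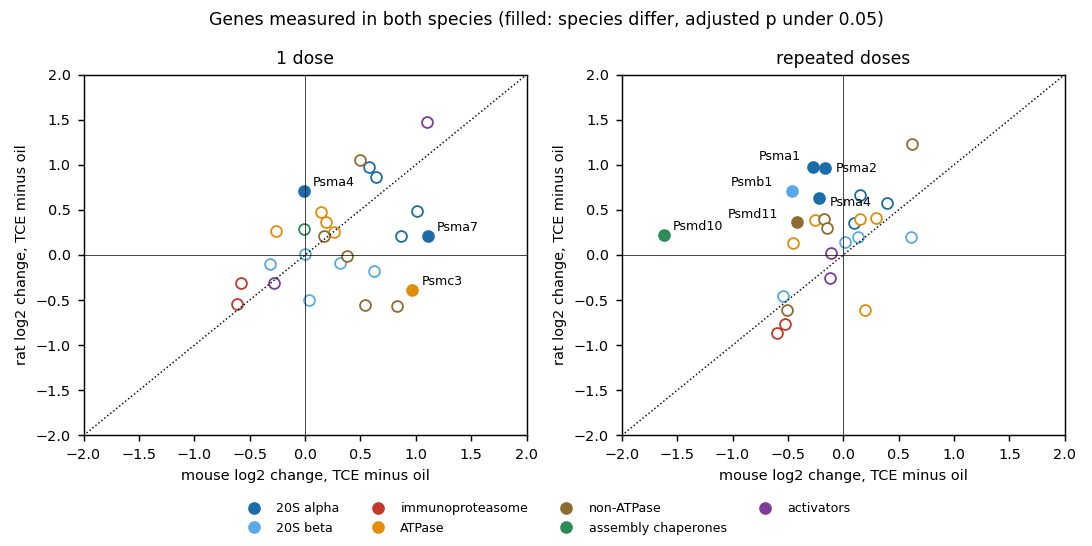
Log2 change in mouse (x axis) against rat (y axis), TCE minus oil, for the 26 genes on both arrays, coloured by role, with the line of equal change dotted; filled and named points have species effects that differ at adjusted p under 0.05. After 1 dose 3 points are filled, and after repeated doses all 6 filled points lie above the line, where the rat change is the higher.

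No immunoproteasome subunit was called in either species in the fit over the 16 arrays of a species, but several passed under other settings, given beside their values. In mouse after 1 dose 0 of 3 genes were called and the median was -0.58. Psmb8, which replaces Psmb5, had TCE ratios of 0.68, 0.74, 0.61 and 0.63 against oil ratios of 1.01, 0.89, 0.99 and 1.06 (-0.58 ± 0.22, limma adjusted p = 0.127). Psmb9, which replaces Psmb6, had ratios of 0.67, 0.65, 0.80 and 0.54 against 1.08, 0.92, 0.93 and 1.11 (-0.61 ± 0.22, adjusted p = 0.0958). For both genes every TCE array was below every oil array, and neither passed the threshold. Psmb8 passed in the fit on the 8 arrays of the comparison alone (limma adjusted p = 0.0493), and Psmb9 passed without the noisiest 40% of probe sets (0.0411). Psmb10, which replaces Psmb7, overlapped between groups, at 0.74, 1.11, 0.81 and 0.81 against 1.06, 0.79, 0.97 and 1.03 (-0.16 ± 0.23, adjusted p = 0.725).

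After repeated doses in mouse the 3 genes had changes of -0.60 (Psmb8, limma adjusted p = 0.0975), -0.52 (Psmb9, 0.135) and -0.64 (Psmb10, 0.0796). Psmb8 ratios were 0.72, 0.48, 0.58 and 0.49 after TCE and 0.49, 1.03, 1.08 and 0.97 after oil. Oil 1 lay with the TCE arrays, and without it the change was -0.87 (adjusted p = 0.00677). Psmb9 ratios were 0.91, 0.50, 0.51 and 0.81 against 0.71, 1.13, 1.02 and 0.98, and Psmb10 ratios 0.88, 0.55, 0.73 and 0.44 against 0.75, 1.04, 0.96 and 1.23. Without TCE 1, Psmb10 changed by -0.81 (adjusted p = 0.0377). The array with the highest values among TCE arrays for these 3 genes was TCE 1, the array of that group with a Gapdh value under 1, and the lowest among oil arrays was oil 1, the oil array above 1. With array weights, which give noisier arrays less influence, all 3 passed, Psmb8 at -0.76 (limma adjusted p = 0.0195), Psmb9 at -0.67 (0.0438) and Psmb10 at -0.75 (0.0308). Without the noisiest 40% of probe sets Psmb8 (0.0452) and Psmb10 (0.0344) passed. With the Gapdh covariate the changes were -0.36, -0.36 and -0.40 for Psmb8, Psmb9 and Psmb10.

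Rat immunoproteasome genes had the same sign. After 1 dose Psmb8 had ratios of 0.69, 0.97, 1.31 and 0.61 against 0.94, 1.37, 0.96 and 1.04 (-0.32 ± 0.26, limma adjusted p = 0.54), and Psmb9 0.56, 0.44, 1.33 and 0.66 against 0.87, 1.53, 0.65 and 1.13 (-0.54 ± 0.31, 0.363). The groups overlapped, with TCE 3 high for both genes. After repeated doses Psmb8 stood at 0.82, 0.59, 0.39 and 0.45 against 1.002, 0.998, 1.006 and 0.934 (-0.86 ± 0.26, 0.084) and Psmb9 at 0.63, 0.49, 0.65 and 0.55 against 1.10, 0.95, 0.82 and 1.05 (-0.76 ± 0.31, 0.199). Here every TCE array was below every oil array for both genes, and neither passed. Without the noisiest 40% of probe sets Psmb8 did (limma adjusted p = 0.0289). The Gapdh values of TCE arrays 1 to 4 were 0.33, 0.82, 2.07 and 1.60. The higher that value, the lower was Psmb8, whereas the Psmb9 probe set given above did not follow this order. Another Psmb9 probe set had ratios of 0.771, 0.451, 0.381 and 0.355 on TCE arrays 1 to 4. These followed the order except between TCE 3 and TCE 4.

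**Figure D5:**
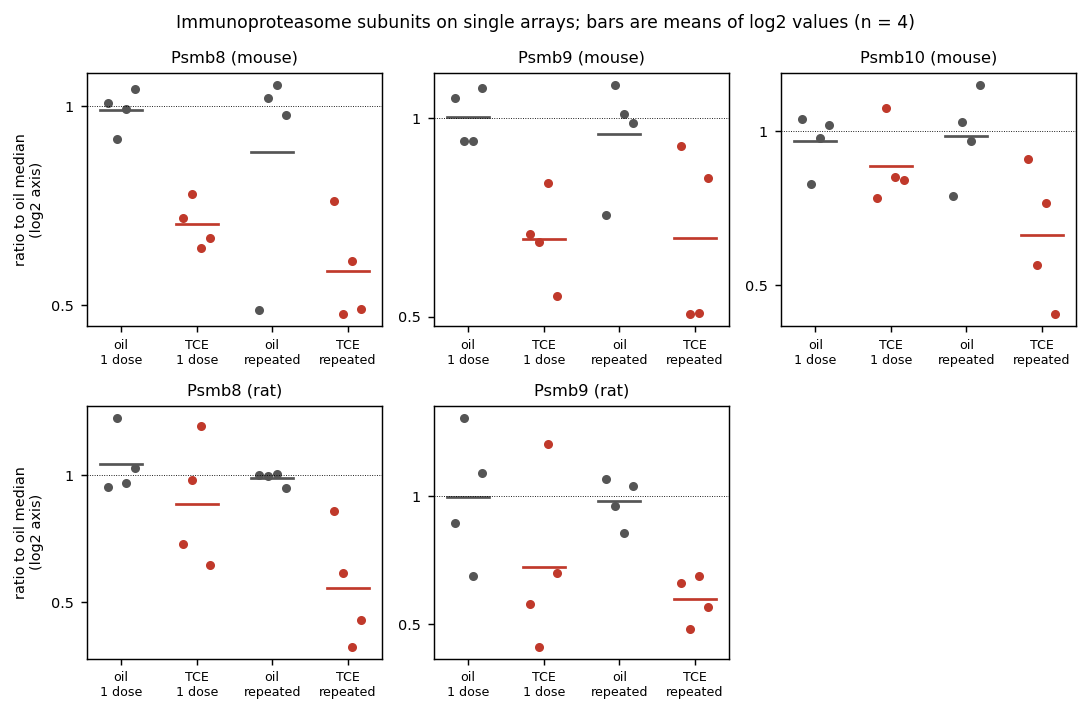
Ratio to the oil median on every array (log2 axis, 1 marked by a dotted line) of Psmb8, Psmb9 and Psmb10 in mouse and of Psmb8 and Psmb9 in rat, oil in grey and TCE in red, with bars at the mean of the log2 values of 4 arrays. TCE bars lie below the oil bars in all panels, without overlap of points for Psmb8 and Psmb9 in single-dosed mice and in repeatedly dosed rats; no change passed the threshold in the fit over the 16 arrays of a species.

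The activator genes Psme1 and Psme2, which are induced by interferon with the immunoproteasome, were not called anywhere. Mouse Psme1 had ratios of 0.83, 0.92, 0.75 and 0.79 after 1 dose of TCE against 1.21, 0.80, 0.96 and 1.04 (-0.28, limma adjusted p = 0.321), and 1.15, 0.84, 0.85 and 0.80 against 0.996, 1.004, 0.856 and 1.068 after repeated doses (-0.12, 0.674). Rat Psme1 had 0.947, 0.84, 0.998 and 0.613 against 0.97, 1.25, 0.92 and 1.03 (-0.31, 0.381), then 1.07, 0.80, 0.89 and 0.79 against 1.01, 1.23, 0.99 and 0.99 (-0.25, 0.497). Rat Psme2 stood at 0.86, 0.72, 1.03 and 0.79 against 0.94, 1.24, 0.64 and 1.07 (-0.16, 0.704) and at 0.99, 0.89, 1.22 and 0.90 against 1.09, 0.99, 0.85 and 1.01 (0.02, 0.979). The groups overlapped in each of these comparisons.

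Genes of antigen presentation, which work with the immunoproteasome, and genes of the interferon response were counted as 1 list. In mouse its calls went in 1 direction, downward. Of 22 measured 3 were lower and 0 higher after 1 dose (median -0.09), and 10 were lower and 0 higher after repeated doses (median -0.63), beside 4.57% and 9.42% of all genes that were lower. After 1 dose these were Pdia3, a chaperone of peptide loading, at -1.12 ± 0.24 (limma adjusted p = 0.0123), and the class I heavy chains H2-K1 at -0.57 ± 0.13 (0.0188) and H2-D1 at -0.53 ± 0.15 (0.0416), whose probe sets may read related class I genes. After repeated doses the largest were the interferon-induced Ifit1 at -2.81 ± 0.44 (0.0026), Usp18 at -2.13 ± 0.32 (0.00234) and Ifit3 at -2.03 ± 0.41 (0.00867), with Pdia3 at -1.94 ± 0.24 (0.000744). In rat 0 of 10 were called in either schedule.

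Macrophages and lymphocytes also carry immunoproteasome transcripts, and in bulk liver fewer such cells and less RNA per cell cannot be told apart. Of 10 macrophage markers in mouse 0 were called after 1 dose and 2 were lower after repeated doses, Csf1r at -0.63 ± 0.15 (limma adjusted p = 0.0206) and C1qa at -0.99 ± 0.29 (0.0428), with medians of -0.41 and -0.44. Their summed ratio ran from 6.62 to 8.30 on TCE arrays and from 8.51 to 11.3 on oil arrays after 1 dose, and from 5.85 to 7.61 against 6.01 to 11.9 after repeated doses. In rat 0 of 5 were called, with medians of -0.50 and -0.68 and sums of 3.20 to 5.26 against 3.49 to 6.88, then 3.14 to 6.02 against 4.47 to 5.54. Of 12 lymphocyte markers in mouse 0 were called after 1 dose (median -0.23, sums of 10.2 to 14.1 against 9.68 to 15.6). After repeated doses 1 was lower, Ptprc, a gene not confined to lymphocytes, at -1.99 ± 0.52 (limma adjusted p = 0.0265). The list median was then -0.01, with sums of 12.4 to 16.3 against 10.99 to 16.87. In rat 0 of 8 were called (sums of 7.50 to 10.9 against 6.204 to 13.046, then 5.20 to 6.96 against 5.30 to 9.15). Whether any defining marker was absent cannot be read from ratios, and the part of these cells in the immunoproteasome values was not tested.

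Few hepatocyte markers were called, but in mouse all 7 had negative changes in both schedules. Their medians were -0.23 and -0.33, against -0.08 and -0.16 over all genes. In rat the medians were -0.09 and 0.12. Of 7 in mouse 0 were called after 1 dose and 1 was lower after repeated doses (Tat, an amino acid aminotransferase, at -0.59 ± 0.18, limma adjusted p = 0.0488), with summed ratios of 5.49 to 5.90 on TCE against 6.55 to 7.30 on oil arrays, then 4.65 to 5.54 against 6.13 to 7.42. In rat 0 of 8 were called, with sums of 7.48 to 8.18 against 7.40 to 8.72 and 7.84 to 8.97 against 7.31 to 9.03. The part of hepatocyte content in the proteasome values was not tested.

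Genes that work around the proteasome were mostly not called. Of 7 partner proteins in mouse, Usp14, a deubiquitinase of the 19S cap, was higher after 1 dose (0.68 ± 0.14, limma adjusted p = 0.0112), and 0 were called after repeated doses, with medians of 0.17 and -0.42. Of 4 in rat, Txnl1, a thioredoxin-like protein attached to the cap, was higher after 1 dose (1.04 ± 0.22, 0.0409) and after repeated doses (1.36 ± 0.22, 0.00664), with medians of 0.06 in both. Of 16 ubiquitin conjugation and shuttling genes in mouse 2 were higher and 1 was lower after 1 dose (median 0.36). Rad23b, which shuttles ubiquitinated proteins to the proteasome, was at 0.74 ± 0.21 (0.0417) and Vcp, an unfolding ATPase, at 0.61 ± 0.15 (0.0206), while Ufd1, an adaptor of Vcp, was at -0.90 ± 0.25 (0.0416). After repeated doses 0 of 16 were called (median -0.18), and in rat 0 of 10 in either schedule (medians 0.25 and 0.31).

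Among 14 transcription factors known to act on proteasome genes in mouse, Nfe2l2, the oxidant-responsive NRF2, was higher after 1 dose (0.87 ± 0.20, limma adjusted p = 0.0176; list median -0.04). After repeated doses Irf9, a component of the interferon-activated complex, was lower (-0.64 ± 0.17, 0.0274; list median -0.08), and it is also a member of the interferon list. In rat 0 of 8 were called in either schedule, with medians of 0.24 and 0.02. Rat Nfe2l2 had changes of 1.23 ± 0.34 (limma adjusted p = 0.0834) and 1.14 ± 0.34 (0.0828), and neither passed. Mouse Nfe2l2 after repeated doses was at 0.15 ± 0.20 (0.669). Nfe2l1, of the same family, was at -0.33 (limma adjusted p = 0.334) in mouse after 1 dose. After repeated doses it was at -0.17 (0.616). No test of the species difference is given for Nfe2l2. The part of these factors in the proteasome values was not tested.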

How the data were processed

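Liver RNA was measured on 32 Affymetrix arrays, 1 array type per species; per the labels, biotin-labelled cRNA was made from polyA RNA. The submitters' processing notes name MAS5, with no version. The deposited values are ratios: the files show that the authors divided each probe set by its median in the matching oil group, so brightness, detection and a filter on dim probe sets could not be used. A ratio of a dim probe set carries more noise, and precision is limited by the 4 arrays per group.

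Ratios were taken to log2 with no further scaling. Group means were fitted with limma 3.58.1 (R 4.3.3; lmFit and eBayes without trend) to the 16 arrays of each species, and to all 32 for species differences, with Benjamini-Hochberg adjustment. The 66 mouse and 59 rat control probe sets were left out. The procedure was tested on simulated data with known log2 changes. In the comparisons of TCE with oil, changes of 0.5 were called in 2.99% of cases. Changes of 1.0 were called in 29.9% to 44.8%, and changes of 2.0 in 69.7% to 81.8%. A gene that was not called may therefore still have changed. The members and lists were chosen with earlier results of these data known. Values are given for called members (at most 4 per class and comparison), for Psmb8, Psmb9, Psmb10, Psme1 and Psme2, and for at most 4 called genes per further list. In a class without calls after 1 dose in mouse the largest change was also given, which was that of Psmb9. Some values outside this rule are given as well and were not fixed beforehand. Among them are mouse Psma2, Psma3, Psma4, Psmb5 and Psme3 after 1 dose, rat Nfe2l2 and mouse Nfe2l1. The labels do not say whether array numbers pair TCE with oil arrays, and correlations of same-numbered deviations ran from -0.17 to 0.08. In mouse after 1 dose they were 0.05, 0.07, 0.08 and 0.05 for arrays 1 to 4. There TCE 2, 3 and 4 each correlated best with the oil array of the same number. Alternatives were quantile normalization, centring, log2(value + 1), leaving out the 40% noisiest probe sets, fits on the groups compared, array weights, a replicate block, the Gapdh covariate, leaving out arrays above 1 in it, averaging a gene's probe sets, and dropping each array in turn.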

Additional observations from a re-analysis of the deposited data

Results flagged for a closer look

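In groups of 4 arrays, 1 array stood apart from the other 3 by Dixon's test of the gap over the range for 10 of the 86 groups checked, where chance gives about 1 in 20. In mouse these were Psma6 on single-dose TCE 4 (a ratio of 1.562), Psmd5 on single-dose TCE 3 (4.327), Psmd8 on single-dose oil 1 (1.585), Psmb8 on repeated-dose oil 1 (0.492), Psmd9 on repeated-dose oil 4 (0.78), Psme1 on repeated-dose TCE 1 (1.153) and Psmg3 on repeated-dose TCE 4 (1.178). In rat they were Psma2 on single-dose TCE 2 (1.628), Psmb8 on repeated-dose oil 4 (0.934) and Psme1 on repeated-dose oil 2 (1.233).

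The effect of TCE differed between groups, by limma's test of the difference itself, for 10 results. Psmd5 differed between the schedules in mouse, repeated minus single, by -1.74. Between mouse and rat after 1 dose Psma4 differed by -0.72, Psma7 by 0.90 and Psmc3 by 1.36. After repeated doses Psma1 differed by -1.25, Psma2 by -1.13, Psma4 by -0.85, Psmb1 by -1.17, Psmd10 by -1.84 and Psmd11 by -0.78.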

How the results depend on the processing

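Counts of members called are given in the order mouse single dose (13), mouse repeated doses (6), rat single dose (5), rat repeated doses (4), mouse schedule difference (1), species difference after 1 dose (3) and after repeated doses (6); the rat schedule difference stayed at 0. Quantile normalization gave 1, 0, 0, 0, 0, 0 and 0. Where a setting moved a count by more than 1.5 times, the values were as follows. Centring gave 3 for rat single dose, and log2(value + 1) gave 7 for the mouse schedule difference and 5 for the species difference after 1 dose. Leaving out the noisiest 40% of probe sets gave 11, 7, 12 and 5 for mouse repeated doses, rat repeated doses, the mouse schedule difference and the species difference after 1 dose, and array weights gave 12, 4 and 5 for mouse repeated doses, the mouse schedule difference and the species difference after 1 dose. Fits on the groups compared gave 1 for mouse repeated doses, 0 for rat single dose, 1 for rat repeated doses and 1 for the species difference after 1 dose. The Gapdh covariate gave 8 for mouse single dose, 1 for rat repeated doses and 7 for the mouse schedule difference. Without arrays above 1 in the Gapdh value the counts were 0, 0, 0, 1, 0, 1 and 2. The mean over probe sets gave 3 and 2 for rat single and repeated doses. Correlations between the deviations of same-numbered arrays were small, from -0.17 to 0.08. The replicate block gave 4, 2, 0, 1, 0 and 0 for the first 6 counts and 5 for the species difference after repeated doses. Leaving out 1 array gave 8 to 13, 3 to 8, 1 to 4, 2 to 3, 0 to 2, 1 to 4 and 5 to 6.

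The sign turned for values that were not called. Psmb10 in mouse after 1 dose was 0.0072 after quantile normalization, 0.33 with the Gapdh covariate and 0.22 without the arrays above 1. Psme1 in mouse after repeated doses was 0.0551 after quantile normalization, 0.038 after centring, 0.25 without the arrays above 1 and 0.14 as the mean over probe sets, and in rat after 1 dose 0.0274 as that mean. Psme2 in rat after repeated doses was -0.0041 after quantile normalization, -0.0256 after centring, -0.0472 with array weights, -0.0495 with the Gapdh covariate and -0.0658 without the arrays above 1; leaving out 1 array gave -0.0837 (without TCE 3) to 0.0698 (without TCE 2). The cause of these shifts was not tested. Of 37 calls of named genes, 19 were kept whichever array was left out, 1 after quantile normalization, 29 after centring, 35 with log2(value + 1), 37 without noisy probe sets and 37 with array weights. With the replicate block 12 were kept, with the Gapdh covariate 24, without arrays above 1 in it 3, and as means over probe sets 28.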
